A study of Mus musculus with 36 samples.

Results

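Amino acid starvation was examined in mouse embryonic fibroblasts (MEFs) that carry a deletion of PERK, a kinase of the membrane of the endoplasmic reticulum (ER). The 6 libraries described, of 36 in the series, were 3 from PERK-deletion cells starved for 6 h in RPMI SILAC medium without lysine and arginine and 3 from untreated PERK-deletion cells. They were chosen by their labels alone, and no measured value entered the choice. The series also holds PERK-deletion cells given the solvent DMSO or 200 nM thapsigargin, and the same 4 conditions for a GCN2-deletion line and for wild-type (WT) cells, with 3 libraries in each of 12 groups. All cells were grown in RPMI medium with fetal bovine serum before treatment. The stated question was which genes answer to PERK or to GCN2 and not to the other kinases of this pathway.

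The labels call the 3 libraries of a group technical replicates and name no more than 1 line per genotype. Every p-value therefore measures only the spread between libraries within groups, which may be technical. Unless stated, that spread was pooled over all 12 groups, so other lines and treatments enter it. Genotype and line cannot be told apart. The labels name no control for the change of medium, so its part in the starvation values was not tested. They also do not say which part of the PERK gene was deleted.

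Starved cells accumulate tRNAs that carry no amino acid, and these activate the kinase GCN2. GCN2 phosphorylates the translation factor eIF2alpha, which lowers protein synthesis but raises translation of the mRNA of ATF4, a transcription factor that turns on genes of amino acid synthesis, amino acid import and tRNA charging. PERK phosphorylates the same site when unfolded proteins collect in the ER, so cells without PERK still hold the kinase that is known for sensing amino acid lack.

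RNA was measured as TPM, the authors' abundance of each gene's transcripts scaled for length and to a fixed sum. The number of reads behind a TPM value cannot be read from it, so depth is unknown. Differences are given as log2 changes of TPM + 1, starved minus untreated unless stated, which understates the change of genes of low TPM. The words rose and fell are kept for an adjusted p under 0.05 in limma, with Benjamini-Hochberg adjustment over 16083 genes, those that reached 1 TPM in 3 or more libraries. One starved library, replicate 1, stood apart from the other 2 starved PERK-deletion libraries. Its mitochondrially encoded genes held 4.33% of TPM, against 7.80 and 7.97%, and its genes annotated as microRNAs held 3.47%, against 0.957 and 0.987%. Among the untreated libraries, replicate 3 had the highest microRNA share, 2.97% against 1.17 and 0.971%. A count of 0 genes that rose or fell is limma's at that threshold, and the number at an unadjusted p under 0.05 stands beside it for each list. Calls of named genes that ended without starved replicate 1 or untreated replicate 3, or against DMSO, are stated beside them, at times only as a number of libraries.

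Of 12 fibroblast markers, against which the labelled cell type was checked, 10 were tested, and the summed level of the list was 3489 to 3553 TPM in starved and 3050 to 3278 TPM in untreated PERK-deletion cells. Vim, which encodes vimentin and is not particular to fibroblasts, held most of it, with 2404, 2265 and 2274 TPM in starved and 2097, 2029 and 2054 TPM in untreated cells. Lum, Dcn, Fap and Pdgfra stayed under 1 TPM in all 6 libraries. Col1a1, which encodes a chain of type I collagen, was 8.94, 10.7 and 12.2 TPM in starved and 15.6, 15.5 and 14.2 TPM in untreated PERK-deletion cells, against 565.0, 607.3 and 611.8 TPM in starved and 1329, 913.7 and 930.8 TPM in untreated WT cells. The WT values of this collagen gene were all far higher. The summed level of 12 macrophage markers was 16.7 to 18 TPM in starved and 14 to 16.2 TPM in untreated cells, of which Cd14 made up most. Aif1, C1qa, C1qb and Tyrobp were listed at 0 in all 6 libraries. The summed markers of endothelial, epithelial, skeletal muscle, adipocyte and neural cells each stayed under 23 TPM in every one of the 6 libraries. In RNA of whole cultures, fewer cells of a type and less RNA per cell cannot be told apart.

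Eif2ak3, which encodes PERK (chromosome 6 from 70844515 to 70905245 in GRCm38), was still detected in the PERK-deletion line. It stood at 4.24, 3.41 and 3.66 TPM in starved and 4.58, 4.2 and 3.87 TPM in untreated PERK-deletion cells, against 4.2, 3.82 and 3.93 TPM in starved and 7.52, 7.46 and 5.97 TPM in untreated WT cells. The whole-gene value may hold transcript left after a deletion, so it is not a check of the deletion's extent. Starvation did not change it past the threshold in the PERK-deletion line (log2 change -0.13, SE 0.0973, adjusted p = 0.463), and its response there was higher than in WT (difference 0.54, adjusted p = 0.00834). Eif2ak4, which encodes GCN2, was present at 22.4, 24 and 23.8 TPM in starved and 25.1, 24.1 and 19 TPM in untreated PERK-deletion cells (log2 change 0.05, SE 0.131, adjusted p = 0.892). Eif2ak1, which encodes the haem-regulated kinase HRI, and Eif2ak2, which encodes the kinase PKR activated by double-stranded RNA, did not pass either (log2 0.06, adjusted p = 0.553, and log2 0.02, adjusted p = 0.982).

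Starvation of the PERK-deletion line raised 912 genes, 5.67% of those tested, and lowered 1017, 6.32%. At least 2-fold changes were few: 60 genes rose (0.373%) and 52 fell (0.323%). The median log2 change over all genes tested was -0.02. After TPM was rescaled without mitochondrially encoded and microRNA genes, 758 rose and 1308 fell. Without starved replicate 1 there were 826 genes that rose (5.14%) and 714 that fell (4.44%). Single libraries moved these counts by more than 1.5 times: 544 genes rose without untreated replicate 3, and 638 fell without untreated replicate 1. The fit to the 6 libraries alone called 168 genes that rose and 114 that fell, of which 53 and 38 by 2-fold. It has far fewer degrees of freedom, and the cause of its lower counts was not tested. With the DMSO group of the same line as control, 669 genes rose (4.16%) and 1037 fell (6.45%).

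**Figure D1:**
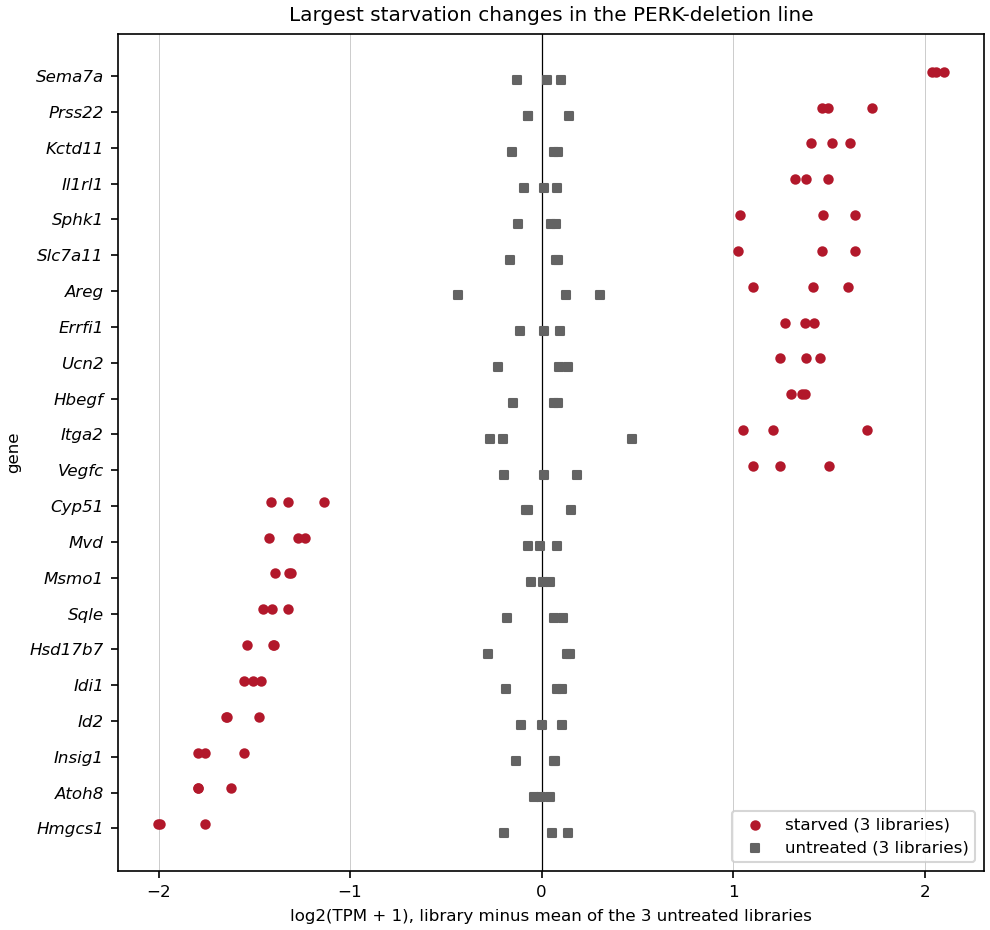
Each row is a gene of the PERK-deletion line; the horizontal axis is log2(TPM + 1) of a library minus the mean of the 3 untreated libraries, with starved libraries as red circles and untreated libraries as grey squares. The 12 genes that rose most and 10 of the 12 that fell most are drawn (Rnu5g, listed at 0 in all starved libraries, and a gene not reported here are left out), and the starved libraries of each lie apart from the untreated ones.

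The genes of the ATF4 and CHOP stress program moved little in starved cells without PERK. Of 30 listed genes, 6 rose and 2 fell, where 5.67% of all genes rose and 6.32% fell. The median log2 change was 0.11 against -0.02 for all genes tested. The 6 that rose were Slc7a11, Adm2, Eif4ebp1, Nupr1, Gdf15 and Ddit4, and the 2 that fell were Ddit3 and Herpud1. Single libraries and the fit decided much of this count. The number that rose was 11 without starved replicate 1 and 3 without starved replicate 3, and the fit to the 6 libraries alone called 1 that rose and 0 that fell. Median-of-ratios scaling and quantile normalization each called 10 that rose.

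Atf4 mRNA itself stood at 321.5, 308.4 and 334.8 TPM in starved and 329.3, 331.0 and 292.8 TPM in untreated cells, and the groups overlapped (log2 change 0.02, SE 0.0481, adjusted p = 0.884). These are RNA levels and say nothing of translation, the step at which ATF4 is known to be raised. Ddit3, which encodes CHOP, a death-promoting partner of ATF4, was 40.7, 42.4 and 46.8 TPM in starved against 50.3, 54.4 and 53 TPM in untreated cells. All 3 starved libraries lay below all untreated ones (log2 change -0.27, SE 0.0631, adjusted p = 0.00366). In WT it rose to 229.5, 264.0 and 262.6 TPM, against 65.2, 63.1 and 67.2 TPM untreated, and in the GCN2-deletion line it fell to 16.6, 16.8 and 16.8 TPM, against 34.9, 38.7 and 35.8 TPM. The response of Ddit3 in the PERK-deletion line was lower than in WT (difference -2.21, SE 0.0893, adjusted p = 4.48e-16) and higher than in the GCN2-deletion line (difference 0.81, adjusted p = 1.35e-06).

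Trib3, a pseudokinase that ATF4 and CHOP induce, was a gene whose call turned on 1 library. It stood at 24.5, 37.1 and 39.2 TPM in starved replicates 1 to 3, against 27.2, 25.6 and 28.5 TPM in untreated and 33, 34.9 and 32.4 TPM in DMSO-treated cells. Starved replicate 1 lay below all untreated libraries while the other 2 starved libraries lay above all of them. With all libraries Trib3 did not pass (log2 change 0.27, SE 0.122, adjusted p = 0.158), and without starved replicate 1 it did (log2 0.48, adjusted p = 0.00272). Against DMSO it did not pass with all libraries (log2 -0.02, adjusted p = 0.968) or without starved replicate 1 (log2 0.19, adjusted p = 0.353). Chac1, which encodes an enzyme that breaks down glutathione, behaved the same way, with 20.1, 31.4 and 36 TPM in starved and 28.2, 27.8 and 26.4 TPM in untreated cells (adjusted p = 0.88, and 0.0174 without starved replicate 1). Asns, which encodes asparagine synthetase, stood at 125.1, 141.5 and 152.2 TPM in starved and 122.8, 129.9 and 124.1 TPM in untreated cells (adjusted p = 0.0787, and 0.00474 without that library). Against DMSO Asns did not pass with all libraries (log2 -0.03, adjusted p = 0.817) or without starved replicate 1 (log2 0.05, adjusted p = 0.736). Chac1 did not pass against DMSO either, at log2 0.00 with all libraries and 0.24 without starved replicate 1 (adjusted p = 0.0592). The median log2 difference of the 30 genes from the untreated mean was near 0 in starved replicate 1, 0.13 in replicate 2 and 0.28 in replicate 3. The low mitochondrial and high microRNA shares of replicate 1 moved with this difference, and their part in it was not tested.

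Slc7a11, which encodes the cystine importer xCT, was the member that rose most. It stood at 6.85, 9.66 and 11 TPM in starved cells, against 3.1, 3.07 and 2.45 TPM in untreated and 3.08, 3.05 and 3.19 TPM in DMSO-treated cells (log2 change 1.38, SE 0.173, adjusted p = 1.73e-06). Every starved library was above every control library, and it rose without each of the 6 libraries in turn. Its rise was smaller than in WT (difference -1.55, adjusted p = 4.85e-05) and larger than in the GCN2-deletion line (difference 1.73, adjusted p = 5.08e-05). Eif4ebp1, which encodes the translation repressor 4E-BP1, was 182.4, 227.9 and 225.9 TPM in starved and 148.6, 152.0 and 172.4 TPM in untreated cells (log2 0.42, adjusted p = 0.000918). Adm2, a peptide hormone gene, was low, at 0.604, 1.16 and 1.1 TPM in starved and 0.313, 0.165 and 0.24 TPM in untreated cells (adjusted p = 5.09e-05). Ddit4, which encodes the mTORC1 inhibitor REDD1, was 20.3, 23.2 and 23.9 TPM in starved and 20, 17 and 18.4 TPM in untreated cells (adjusted p = 0.0167). Gdf15, a secreted stress hormone gene, stayed under 1 TPM in all 6 libraries (log2 0.38, adjusted p = 0.0348). Nupr1, which encodes a small stress-induced chromatin protein, was 30.4, 26.4 and 39.4 TPM in starved and 24.1, 23.4 and 24.2 TPM in untreated cells (log2 0.39, adjusted p = 0.00392), and just missed the threshold without starved replicate 3. Herpud1, of ER-associated degradation, fell with overlapping groups, 35.1, 42.3 and 50.6 TPM in starved and 60.7, 51.1 and 44.5 TPM in untreated cells (adjusted p = 0.0454). That call ended without replicate 1 or 2 of either group (adjusted p = 0.336 without starved replicate 1). The calls of Ddit4 and Gdf15 each ended without starved replicate 2 or 3. That of Ddit4 also ended without untreated replicate 2, and that of Gdf15 without untreated replicate 2 or 3. Their adjusted p was up to 0.106 and 0.147. Eif4ebp1 and Ddit4 did not pass against DMSO (log2 0.25 and 0.18, adjusted p = 0.0604 and 0.15).

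Other members of the panel did not pass in starved cells without PERK. Sesn2, which encodes the stress-induced leucine sensor sestrin 2, was 17.2, 23.7 and 24.6 TPM in starved and 22.9, 22 and 20.1 TPM in untreated cells, and fell against DMSO (log2 -0.29, adjusted p = 0.0318) but not when starved replicate 1 was left out (log2 -0.13, adjusted p = 0.338). Starved replicate 1 was again the lowest. Atf3, another stress transcription factor gene, was 5.53, 5.69 and 6.87 TPM in starved and 6.73, 7.62 and 5.43 TPM in untreated cells. Ppp1r15a, which encodes the eIF2alpha phosphatase subunit GADD34, was 18.3, 21.4 and 21.2 TPM in starved and 24.7, 18 and 20 TPM in untreated cells. The groups overlapped for each of these 3 genes (adjusted p = 1, 0.736 and 0.934). Fgf21, a hormone gene, was listed at 0.389, 0.176 and 0.226 TPM in starved cells and at 0 in all 3 untreated ones, and did not pass (adjusted p = 0.15). For all of these the WT response was larger, by differences of -2.18 for Sesn2, -2.93 for Atf3, -2.58 for Ppp1r15a and -2.76 for Fgf21, each with an adjusted p of at most 1.34e-10.

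**Figure D2:**
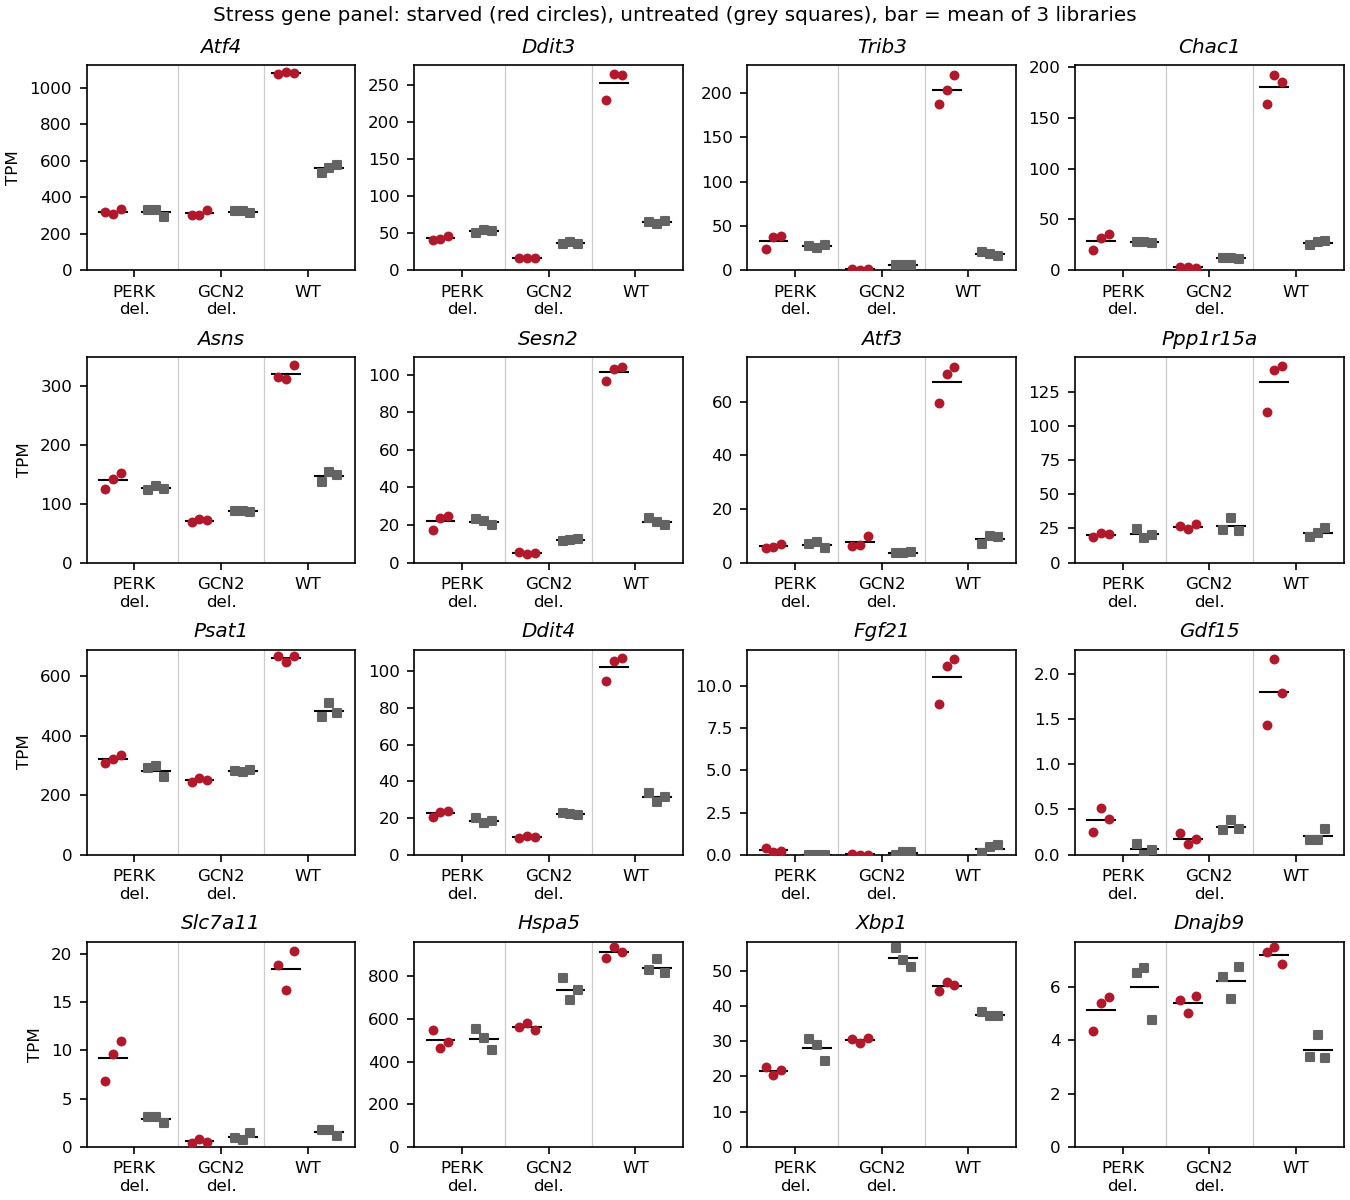
TPM of the 16 panel genes in each library of the PERK-deletion, GCN2-deletion and WT lines, with starved libraries as red circles left of untreated libraries as grey squares, and a bar at each mean of 3 libraries. In the PERK-deletion line Slc7a11 is clearly higher in the starved libraries, while Atf4, Sesn2, Atf3 and Ppp1r15a overlap; in WT these genes are higher in every starved library.

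Across the 30 genes, 28 rose and 1 fell in starved WT cells (median log2 change 1.71), where 12.5% of all genes rose and 17.3% fell. In the starved GCN2-deletion line 2 rose and 16 fell (median -0.31), where 11.7% of all genes rose and 12.1% fell. The response in the PERK-deletion line was lower than in WT for 26 of the 30 genes and higher for 1, Tnfrsf10b, against 5.28% of all genes lower and 5.53% higher. It was higher than in the GCN2-deletion line for 16 and lower for 1, Atf3, against 2.01% of all genes higher and 2.19% lower. The listed genes were chosen with their response in WT known, and all lists with earlier results of these data known. The counts of every list, and the differences from WT and from the GCN2-deletion line, are therefore a description.

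Promoter sequences of 2 listed genes are shown because one gene rose against both controls and the call of the other depended on 1 library. They are from RefSeq on GRCm38.p6, run 5′ to 3′ along the gene's own strand from 250 bases before to 50 bases after its start, and carry in capitals each match to the core of the C/EBP-ATF response element, TGATGNAA, or its other-strand form TTNCATCA. Slc7a11 lies on the minus strand at chr3:50443564-50443863 and holds 2 matches, which begin 66 and 47 bases before the start and do not overlap. Trib3 lies on the minus strand at chr2:152344011-152344310 and holds 1 match, downstream of the start.
Slc7a11: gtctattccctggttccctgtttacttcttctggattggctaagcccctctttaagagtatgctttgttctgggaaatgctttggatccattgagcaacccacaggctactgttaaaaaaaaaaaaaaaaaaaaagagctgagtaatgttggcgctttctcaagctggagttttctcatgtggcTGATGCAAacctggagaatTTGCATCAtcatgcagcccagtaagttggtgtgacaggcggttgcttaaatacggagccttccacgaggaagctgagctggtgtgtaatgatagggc
Trib3: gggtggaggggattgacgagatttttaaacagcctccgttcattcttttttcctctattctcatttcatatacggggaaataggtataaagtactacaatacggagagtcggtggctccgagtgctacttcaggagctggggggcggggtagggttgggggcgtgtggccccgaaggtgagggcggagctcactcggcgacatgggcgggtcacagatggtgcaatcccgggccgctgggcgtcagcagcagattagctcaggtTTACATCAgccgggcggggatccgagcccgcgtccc
Of the 30 genes, 26 had a promoter in the table, and 11 of these (42.3%) held a match. Among the 8 that rose or fell, 7 had a promoter and 3 held one: Slc7a11, Nupr1 and Herpud1. Of the 27025 genes of the table whose promoters were searched, 4.51% held a match in any of their promoters. The match was present both in Slc7a11, which rose, and in Asns, Atf3, Chac1 and Trib3, which did not pass. A match in letters is no evidence of binding.

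Genes of amino acid supply rose in small numbers and by small steps. Of 21 genes of amino acid synthesis and one-carbon metabolism, 5 rose and 0 fell (1 was lower at an unadjusted p under 0.05). Their median log2 change was 0.13, where 5.67% of all genes rose and 6.32% fell. Shmt1, which encodes the cytosolic serine hydroxymethyltransferase, was 115.1, 113.2 and 124.7 TPM in starved and 80.5, 84.2 and 74.3 TPM in untreated cells (log2 change 0.56, SE 0.0813, adjusted p = 1.68e-05). It was the only one of the 5 that also rose against DMSO, and it rose without each library in turn. Its response was 0.11 above that of WT, which did not pass (SE 0.115, adjusted p = 0.656). Bcat1, a transaminase of branched-chain amino acids, was 75.4, 87.2 and 96.1 TPM in starved and 78.8, 71.1 and 59.1 TPM in untreated cells, and Cth, which makes cysteine from cystathionine, was 16.8, 21.7 and 24.5 TPM in starved and 16.8, 17.6 and 16 TPM in untreated cells. Both overlapped between groups (adjusted p = 0.022 and 0.0193) and lost their call without starved replicate 2 or 3 or untreated replicate 3. Psat1, of serine synthesis, was 308.4, 322.1 and 336.2 TPM in starved and 290.4, 297.3 and 261.5 TPM in untreated cells (log2 0.19, adjusted p = 0.0164), a call lost without starved replicate 3 or untreated replicate 3, and Shmt2, the mitochondrial counterpart of Shmt1, rose as well (log2 0.26, adjusted p = 0.00403). The count was 8 without starved replicate 1, 2 without starved replicate 3 or untreated replicate 3, 3 without starved replicate 2, and 1 in the fit to the 6 libraries alone. In starved WT 16 of the 21 rose, where 12.5% of all genes rose. The PERK-deletion response was lower than in WT for 15 and higher for 0 (all genes 5.28% and 5.53%).

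Of 20 cytosolic aminoacyl-tRNA synthetase genes, which charge tRNAs, 3 rose and 0 fell (unadjusted 5 and 0). The shares of all genes were 5.67% and 6.32%. Tars, for threonine, was 119.5, 109.3 and 113.2 TPM in starved and 96.2, 94.9 and 77.9 TPM in untreated cells (log2 0.35, adjusted p = 0.00256). Gars, for glycine, and Rars, for arginine, rose by log2 0.24 (adjusted p = 0.00733) and 0.16 (adjusted p = 0.0216). Without untreated replicate 3 Tars was the one of the 3 that rose, without starved replicate 1 Rars did not pass (adjusted p = 0.0847), and without both of these libraries 0 rose. None rose against DMSO, where Aars, for alanine, fell. The response was lower than in WT for 14 of the 20 genes and higher for 0 (all genes 5.28% and 5.53%).

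Among 23 amino acid transporter genes 5 rose and 1 fell, where 5.67% of all genes rose and 6.32% fell. Slc6a9, which encodes a glycine transporter, was 18.8, 36.3 and 33 TPM in starved and 18.2, 14.7 and 13.4 TPM in untreated cells (log2 change 0.84, SE 0.165, adjusted p = 0.000724). Starved replicate 1 was the lowest of the starved libraries and lay next to the highest untreated one. Slc7a5 and Slc3a2 encode the 2 chains of a transporter of large neutral amino acids. Slc7a5 was 105.5, 156.1 and 166.2 TPM in starved and 119.4, 117.8 and 100.5 TPM in untreated cells (log2 0.32, adjusted p = 0.0328; log2 0.52 without starved replicate 1), and Slc3a2 rose by 0.25 (adjusted p = 0.00473). The groups of Slc7a5 overlapped, and its call was lost in at least 1 fit that left out a single library. Neither Slc7a5 nor Slc3a2 rose against DMSO (adjusted p = 0.846 and 0.545). Slc1a3, a glutamate and aspartate importer, fell to 3.41, 3.76 and 5.23 TPM in starved cells, against 11.2, 10.3 and 8.86 TPM in untreated ones (log2 change -1.12, SE 0.158, adjusted p = 9.62e-06). Leaving out starved replicate 2 or 3 or untreated replicate 3 brought the number that rose to 3, and the fit to the 6 libraries alone to 1.

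The starvation medium lacked arginine and lysine. Of 23 genes of arginine, lysine and polyamine metabolism 2 rose and 2 fell. These counts were near the shares of all genes, of which 5.67% rose and 6.32% fell. Castor2, a gene of the mTORC1 pathway, was 5.06, 6.45 and 6.72 TPM in starved and 10.8, 9.67 and 9.41 TPM in untreated cells (log2 change -0.64, SE 0.11, adjusted p = 0.000165). Its close relative Castor1, which encodes an arginine sensor of that pathway, fell (log2 -0.33, adjusted p = 0.0433). That call ended without any one of 5 libraries, starved replicate 1 among them, and against DMSO (adjusted p = 0.679). The spermidine and spermine synthase genes rose, Srm by log2 0.19 (adjusted p = 0.0213) and Sms by 0.35 (adjusted p = 0.00146). The call of Srm ended without starved replicate 1 or 3 or untreated replicate 3, with adjusted p up to 0.153. The response was lower than in WT for 2 of the 23 and higher for 1, Castor2 (all genes 5.28% and 5.53%). The 2 were Odc1, the first enzyme of polyamine synthesis (difference -0.55), and Slc7a1, an importer of arginine and lysine (-1.45).

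Sterol synthesis genes fell almost as a whole. Of 25 tested genes, 24 fell and 0 rose (unadjusted 24 and 0), where 6.32% of all genes fell, and the median log2 change was -0.93. Their summed level was 936.8 to 1003 TPM in starved and 1815 to 2014 TPM in untreated cells, with no overlap. These genes are targets of SREBP2, a membrane-bound transcription factor that the INSIG proteins hold in the ER when sterols are plentiful. The exception was Ebp, a sterol isomerase gene (37.4, 50.5 and 44.7 TPM in starved and 45, 41.3 and 49.1 TPM in untreated cells, adjusted p = 0.888). The count that fell was 23 when any 1 of the 6 libraries was left out, 23 against DMSO and 20 in the fit to the 6 libraries alone.

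Hmgcs1, which encodes the synthase at the head of the mevalonate pathway, fell most, to 26.3, 26.1 and 31.1 TPM in starved cells, against 112.1, 118.7 and 93.9 TPM in untreated cells (log2 change -1.92, SE 0.0826, adjusted p = 1.09e-15). Insig1, the retention factor itself and a known SREBP target, was 17.2, 14.4 and 14.8 TPM in starved and 55.2, 54.9 and 47.7 TPM in untreated cells (log2 change -1.70, SE 0.0693, adjusted p = 5.41e-16). In both genes every starved library lay far below every untreated one. Idi1, Hsd17b7, Sqle, Msmo1, Mvd and Cyp51, which encode enzymes of later steps, fell as well, with log2 changes of -1.51, -1.45, -1.39, -1.34, -1.31 and -1.29, each with an adjusted p of at most 2.79e-07. The smallest falls that passed were those of Tm7sf2 (log2 -0.35) and Srebf2 (log2 -0.37), and the call of Tm7sf2 ended without any one of the 6 libraries. Srebf2, which encodes SREBP2, stood at 94, 109.2 and 113.5 TPM in starved and 151.6, 130.8 and 129.0 TPM in untreated cells.

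The fall was shallower than in WT for part of the list. In WT all 25 genes fell (median -1.34), where 17.3% of all genes fell. In the GCN2-deletion line 24 fell (median -1.06), where 12.1% of all genes fell. The response in the PERK-deletion line was higher, that is less negative, than in WT for 14 genes and lower for 0 (all genes 5.53% and 5.28%). It was higher than in the GCN2-deletion line for 6 and lower for 1, Hsd17b7 (all genes 2.01% and 2.19%). Insig1 had one of the larger differences from WT, 1.14 (SE 0.0981, adjusted p = 1.81e-09), with 11.1, 10.1 and 11.9 TPM in starved and 87.3, 87.9 and 79.9 TPM in untreated WT cells. Mvd differed by 1.05 (adjusted p = 8.43e-08), while Sqle differed by -0.01 (adjusted p = 0.962) and Msmo1 by -0.12 (adjusted p = 0.449), which did not pass.

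Promoters of 2 of the genes that fell most show where the core of the sterol response element, TCACNCCA or its other-strand form TGGNGTGA, stands in capitals. Both are from RefSeq on GRCm38.p6 in the same window as above. Hmgcs1 is on the plus strand at chr13:119690101-119690400, with 1 match that begins 137 bases before the start, and Msmo1 on the minus strand at chr8:64733529-64733828, with 1 match that begins 177 bases before it.
Hmgcs1: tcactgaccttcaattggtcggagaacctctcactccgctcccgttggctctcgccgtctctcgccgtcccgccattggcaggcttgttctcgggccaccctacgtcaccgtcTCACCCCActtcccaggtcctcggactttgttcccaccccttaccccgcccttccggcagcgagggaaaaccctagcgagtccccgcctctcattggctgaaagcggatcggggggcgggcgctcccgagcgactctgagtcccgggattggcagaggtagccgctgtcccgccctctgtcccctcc
Msmo1: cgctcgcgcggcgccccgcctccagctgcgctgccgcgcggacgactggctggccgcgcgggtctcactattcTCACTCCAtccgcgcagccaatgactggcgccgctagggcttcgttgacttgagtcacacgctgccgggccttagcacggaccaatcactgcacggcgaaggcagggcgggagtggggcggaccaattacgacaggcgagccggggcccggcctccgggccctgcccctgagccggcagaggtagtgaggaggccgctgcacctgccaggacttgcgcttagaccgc
Of the 25 genes, 17 had a promoter in the table, and 3 of these (17.6%) held a match: Hmgcs1, Msmo1 and Srebf2. Of the 27025 genes of the table whose promoters were searched, 4.97% held one. Each set of promoters was searched for its own motif only, on both strands. The absence of these letters from a window of 300 bases says nothing of SREBP2 at that gene.

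Fatty acid synthesis genes, which SREBP1 is known to drive, fell in part. Of 19 genes 9 fell and 0 rose (unadjusted 12 and 0), where 6.32% of all genes fell and 5.67% rose. The median log2 change was -0.20. Scd2, a fatty acid desaturase gene, was 92.1, 108.4 and 112.1 TPM in starved and 212.8, 207.3 and 163.5 TPM in untreated cells (log2 change -0.89, SE 0.0902, adjusted p = 4.62e-08). Lpin1, which encodes a phosphatidate phosphatase, was 1.87, 2.38 and 2.14 TPM in starved and 5.49, 4.38 and 4.88 TPM in untreated cells (log2 -0.92, adjusted p = 1.22e-07). Elovl6, whose enzyme lengthens fatty acids, fell (log2 -0.76, adjusted p = 6.78e-05), as did Fasn, the fatty acid synthase gene (log2 -0.56, adjusted p = 0.00129). Srebf1 itself was 59.7, 60.1 and 65.8 TPM in starved and 59.9, 60.4 and 56 TPM in untreated cells and did not pass. The count was 6 without untreated replicate 1 and 3 in the fit to the 6 libraries alone. The response was higher than in WT for 6 of the 19 and lower for 1, Mid1ip1 (all genes 5.53% and 5.28%). Elovl6, by 0.68, and Scd2, by 0.64, were among the 6.

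**Figure D3:**
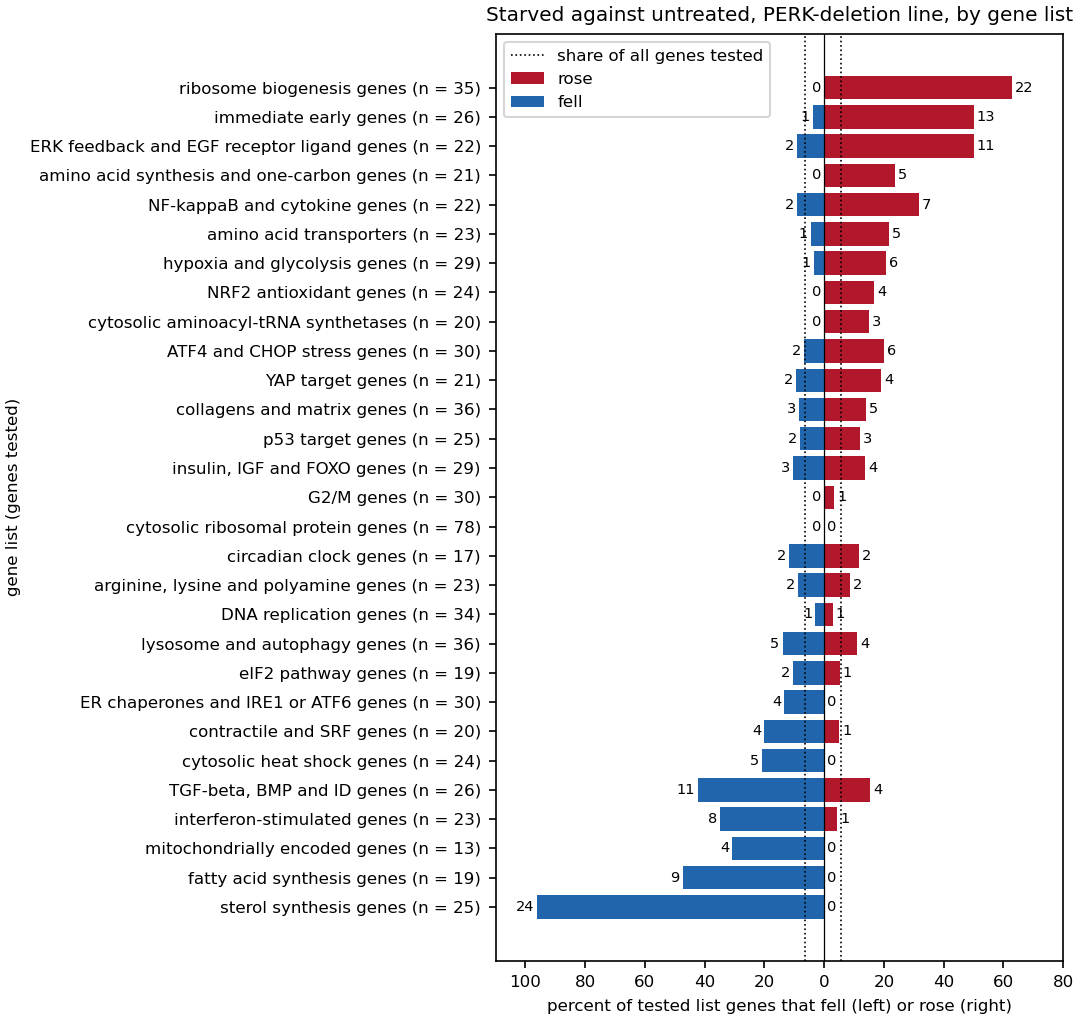
Bars give the percent of tested genes of each of 29 lists that fell (left, blue) or rose (right, red) in the starved against the untreated PERK-deletion line, with counts at the bar ends and the shares of all genes tested as dotted lines. Sterol synthesis (24 of 25 fell) and ribosome biogenesis (22 of 35 rose) stand at the ends, and cytosolic ribosomal protein genes have 0 in both directions.

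Sema7a, which encodes a membrane-anchored semaphorin, had the largest rise among genes with a mean of at least 5 TPM. It stood at 37.8, 37.2 and 39 TPM in starved cells, against 8.97, 8.48 and 7.53 TPM in untreated and 8.49, 8.35 and 9.29 TPM in DMSO-treated cells (log2 change 2.07, SE 0.123, adjusted p = 1.14e-12). Hbegf and Areg encode ligands of the EGF receptor. Hbegf was 111.9, 110.9 and 106.4 TPM in starved and 44.5, 45.3 and 38.2 TPM in untreated cells (log2 change 1.35, SE 0.0645, adjusted p = 9.75e-15), and Areg was 16.4, 14.3 and 11.3 TPM in starved and 3.24, 5.27 and 6.08 TPM in untreated cells (log2 change 1.37, SE 0.182, adjusted p = 3.89e-06). Errfi1, which encodes an inhibitor of that receptor, was 75.5, 81.3 and 84 TPM in starved and 32.9, 31 and 28.3 TPM in untreated cells (log2 1.36, adjusted p = 3.76e-13). None of these 4 genes had starved and untreated libraries that overlapped, and all of them rose without each library in turn.

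Of 22 genes of ERK feedback and EGF receptor ligands 11 rose and 2 fell, with a median log2 change of 0.34, where 5.67% of all genes rose and 6.32% fell. Dusp5, Dusp4 and Dusp6, phosphatases that act on ERK, rose by log2 0.99, 0.73 and 0.73. Dusp1 and Dusp8, phosphatases of the same family, fell (log2 -0.38 and -0.48, adjusted p = 0.00517 and 0.00607), and Dusp8 did not pass when replicate 1 of either group was left out, nor Dusp1 against DMSO (adjusted p = 0.107). In the fit to the 6 libraries alone 7 rose and 0 fell. The response was lower than in WT for 11 of the 22, among them Dusp6 (difference -1.36) and Hbegf (-0.62), and higher for 2, Dusp10 and Tgfa. It was lower than in the GCN2-deletion line for 11 and higher for 0. Of all genes 5.28% responded lower than in WT and 5.53% higher, and 2.19% lower than in the GCN2-deletion line and 2.01% higher.

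Of 26 immediate early genes, the first transcription factor genes to answer growth signals, 13 rose and 1 fell. Their median was 0.27, where 5.67% of all genes rose and 6.32% fell. Fosb was 4.34, 4.54 and 4.31 TPM in starved and 0.763, 0.724 and 1.17 TPM in untreated cells (log2 change 1.52, SE 0.151, adjusted p = 2.97e-08), and Egr3 was 3.88, 3.3 and 6.66 TPM in starved and 1.64, 1.38 and 1.25 TPM in untreated cells (log2 1.17, adjusted p = 3.86e-06). Myc, the most abundant of the 3 that rose most, was 202.0, 218.2 and 217.6 TPM in starved and 110.3, 94.7 and 91.9 TPM in untreated cells (log2 change 1.10, SE 0.0687, adjusted p = 2.92e-12). Fos was 4.88, 5.52 and 3.89 TPM in starved and 5.38, 5.2 and 3.75 TPM in untreated cells and did not pass. Srf, which encodes a factor that drives many of these genes, fell, with 69.1, 87.3 and 91.9 TPM in starved and 115.8, 109.7 and 98.5 TPM in untreated cells (log2 -0.39, adjusted p = 0.0034). In the fit to the 6 libraries alone 6 rose and 0 fell. The response was lower than in WT for 14 genes and higher for 1, Fosb (all genes 5.28% and 5.53%). It was lower than in the GCN2-deletion line for 15 and higher for 0 (all genes 2.19% and 2.01%). For Myc the difference from WT was -0.99 (adjusted p = 2.34e-08) and that from the GCN2-deletion line 0.23 (adjusted p = 0.211).

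Il1rl1, which encodes the receptor of interleukin 33, was also among the 12 genes that rose most, at 214.2, 190.0 and 198.1 TPM in starved and 79.7, 76 and 70.8 TPM in untreated cells (log2 change 1.40, SE 0.105, adjusted p = 1.43e-10). Vegfc, a growth factor gene of lymphatic vessels, was 20.1, 16.7 and 15 TPM in starved and 7.46, 6.52 and 5.51 TPM in untreated cells (log2 1.28, adjusted p = 1.33e-06). Ucn2, which encodes urocortin 2, a peptide of the corticotropin-releasing factor family, was 8.85, 9.33 and 7.96 TPM in starved and 2.23, 3.15 and 3.02 TPM in untreated cells (log2 change 1.36, SE 0.245, adjusted p = 0.000282). The protease gene Prss22 was 5.64, 6.97 and 5.78 TPM in starved and 1.29, 1.66 and 1.29 TPM in untreated cells, and the collagen receptor gene Itga2 was 4.26, 7.24 and 4.88 TPM in starved and 2.52, 1.21 and 1.11 TPM in untreated cells (log2 1.56 and 1.32, adjusted p = 3.94e-09 and 9.07e-06). Kctd11 was 42.9, 49.6 and 46.4 TPM in starved and 16.3, 16.6 and 13.9 TPM in untreated cells (log2 1.51). Sphk1, which makes sphingosine 1-phosphate, was 17.2, 26.6 and 23.6 TPM in starved and 7.15, 8.36 and 8.19 TPM in untreated cells (log2 1.38). Il1rl1, Ucn2, Prss22, Itga2, Kctd11 and Sphk1 responded higher than in WT, by 0.79, 2.36, 1.19, 1.26, 0.56 and 1.27, each with an adjusted p of at most 0.00369. From the GCN2-deletion line the responses of Kctd11 and Il1rl1 did not differ past the threshold (0.07 and 0.42, adjusted p = 0.85 and 0.117). Those of Ucn2, Prss22 and Itga2 were higher than in that line too (1.69, 0.89 and 0.98). Itga2 RNA was itself near 0 in WT, at 0.11, 0 and 0.0224 TPM starved and 0, 0.00569 and 0 TPM untreated. For Sema7a, Areg and Vegfc the difference from WT did not pass (-0.08, -0.32 and 0.67). Areg was at 0.635, 0.26 and 0.324 TPM in untreated WT cells, so that log2(TPM + 1) understates its WT response.

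NF-kappaB and cytokine genes were mixed, with 7 of 22 that rose and 2 that fell (median 0.19). The shares of all genes were 5.67% and 6.32%. Lif, a cytokine of the interleukin 6 family, was 19.6, 22.5 and 25 TPM in starved and 14.6, 15.5 and 11.3 TPM in untreated cells (log2 0.66, adjusted p = 0.0022). The chemokine gene Ccl20 was 2.45, 2.81 and 3.15 TPM in starved and 1.02, 1.07 and 1 TPM in untreated cells (log2 0.90, adjusted p = 0.000215). The chemokine genes Ccl7 and Ccl2 fell (log2 -0.74 and -0.36). Ccl2 lost its call without starved replicate 1 and against DMSO, and against DMSO without that library its log2 difference was 0.06. The fit to the 6 libraries alone called 2 that rose and 1 that fell.

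Of 26 genes of the TGF-beta, BMP and ID list 11 fell and 4 rose, where 6.32% of all genes fell and 5.67% rose. The median was 0.05, so that the list as a whole did not move one way. Of the 11 that fell, Id2, Id3, Atoh8, Smad9, Smad6 and Nog fell further than in WT. BMPs are secreted ligands whose receptors act through SMAD1, SMAD5 and SMAD9, and the ID genes are their best known targets. Id2, which encodes an inhibitor of helix-loop-helix transcription factors, fell to 30.1, 26.6 and 26.7 TPM in starved cells, against 92.1, 85.4 and 79.1 TPM in untreated and 68.8, 70.8 and 63.1 TPM in DMSO-treated cells (log2 change -1.59, SE 0.058, adjusted p = 6.63e-17). In WT it stood at 70.7, 71.5 and 76.8 TPM starved and 83.3, 91.1 and 91.1 TPM untreated. The fall of Id2 was larger than in WT (difference -1.31, SE 0.0821, adjusted p = 3.54e-12) and than in the GCN2-deletion line (difference -1.41, SE 0.0821, adjusted p = 4.17e-12).

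Atoh8, a helix-loop-helix factor gene, was 4.13, 4.13 and 4.78 TPM in starved and 16.7, 17.3 and 16.3 TPM in untreated cells (log2 change -1.73, SE 0.0853, adjusted p = 1.62e-14), and its response was lower than in WT (difference -1.34) and than in the GCN2-deletion line (difference -0.65). Smad9, which encodes a SMAD of the BMP branch, was 3.44, 4.29 and 4.37 TPM in starved and 12.6, 11.6 and 9.74 TPM in untreated cells (log2 change -1.29, SE 0.0967, adjusted p = 1.43e-10). In WT Smad9 did not pass, at 6.59, 6.67 and 6.81 TPM starved and 6.87, 7.38 and 6.06 TPM untreated, and the difference was -1.28 (adjusted p = 1.11e-07). Smad6, an inhibitory SMAD gene, was 4.62, 4.3 and 5.32 TPM in starved and 13.7, 10.2 and 10.4 TPM in untreated cells (log2 -1.11, adjusted p = 1.22e-07). Nog, which encodes the BMP antagonist noggin, was 1.39, 1.26 and 1.12 TPM in starved and 2.96, 3.85 and 3.72 TPM in untreated cells (log2 -0.99, adjusted p = 4.96e-07). Id3, the most abundant ID gene here, was 241.6, 198.6 and 184.4 TPM in starved and 385.5, 339.2 and 343.7 TPM in untreated cells (log2 -0.78, adjusted p = 2.84e-07), and Id4 fell too (log2 -0.82). Id1 fell (log2 -0.52) with overlapping groups, 87.4, 53.7 and 57.1 TPM in starved and 97.1, 83 and 100.2 TPM in untreated cells, and its call ended without starved replicate 2. Pmepa1 and Tgfb1 were among the 4 that rose, and the call of Tgfb1 ended without starved replicate 1 (adjusted p = 0.0653), without either of 2 other libraries and against DMSO. Pmepa1, a TGF-beta target and feedback inhibitor, was 193.5, 280.7 and 272.9 TPM in starved and 141.0, 120.5 and 125.1 TPM in untreated cells (log2 0.93).

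The number of genes of the list that fell was 9 to 11 when 1 library was left out, 8 against DMSO and 7 in the fit to the 6 libraries alone, and all 4 ID genes fell against DMSO too. The response was lower than in WT for 12 of the 26 genes and higher for 2, Ski and Bmp4 (all genes 5.28% and 5.53%). It was lower than in the GCN2-deletion line for 9 and higher for 0 (all genes 2.19% and 2.01%).

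Ribosome biogenesis genes rose together by small amounts. Of 35 genes of this nucleolar machinery 22 rose and 0 fell (unadjusted 31 and 0), where 5.67% of all genes rose, with a median log2 change of 0.25. Polr1b, which encodes a core subunit of RNA polymerase I, was 57.7, 67 and 64.4 TPM in starved and 46.7, 46.3 and 36.5 TPM in untreated cells (log2 0.54, SE 0.0918, adjusted p = 0.000126). Dkc1, which encodes dyskerin, the pseudouridine synthase of small nucleolar particles, was 175.3, 175.3 and 184.1 TPM in starved and 148.3, 133.7 and 111.3 TPM in untreated cells (log2 0.45, adjusted p = 0.00491). Nop58, a core protein of the other class of these particles, was 616.2, 438.9 and 470.4 TPM in starved and 386.2, 388.7 and 334.5 TPM in untreated cells (log2 0.45, adjusted p = 0.000791). The summed level of the list was 7960 to 8607 TPM in starved and 6338 to 7054 TPM in untreated cells, with no overlap. Untreated replicate 3, with the high microRNA share, was the lowest untreated library for nearly all of these genes, and without it 10 rose, and without it and starved replicate 1 together 8. The fit to the 6 libraries alone called 0 in each direction, while 16 rose against DMSO. The response was lower than in WT for 3, Nop14, Wdr74 and Rrp12, and higher for 0 (all genes 5.28% and 5.53%). No member passed against the GCN2-deletion line (all genes 2.01% higher and 2.19% lower). These few differences were near the shares of all genes.

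Of the 78 cytosolic ribosomal protein genes 0 rose and 0 fell by limma's adjusted p, where 5.67% of all genes rose and 6.32% fell. At an unadjusted p under 0.05, 3 of these genes were higher and 0 lower (median 0.02). Their median log2 difference from the untreated mean was 0.20 in starved replicate 1 and -0.04 and -0.06 in the other 2 starved libraries. Growth genes of the cell cycle also moved little. Of 30 genes of mitosis (G2/M) 1 rose, Cdc20, and 0 fell (unadjusted 1 and 4), with a median of -0.05. Cdc20, an activator of the anaphase-promoting complex, was 216.7, 205.2 and 207.0 TPM in starved and 198.0, 196.2 and 179.0 TPM in untreated cells (log2 0.13, adjusted p = 0.0388). That call ended without any one starved library or untreated replicate 3, and against DMSO. Against DMSO 7 of the 30 fell, among them Plk1, Aurka, Aurkb and Ccnb1, 5 fell without untreated replicate 3 and 8 after quantile normalization. Mki67, the proliferation marker Ki-67, was 63.5, 61.4 and 65.1 TPM in starved and 78.7, 72 and 57.5 TPM in untreated cells and did not pass. In WT 29 of the 30 fell, where 17.3% of all genes fell. The response in the PERK-deletion line was higher than in WT for 24 and lower for 0 (all genes 5.53% and 5.28%). Of 34 DNA replication genes 1 rose, Mcm6, and 1 fell, Gins2, and both calls ended without starved replicate 1, without untreated replicate 3 and against DMSO.

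**Figure D4:**
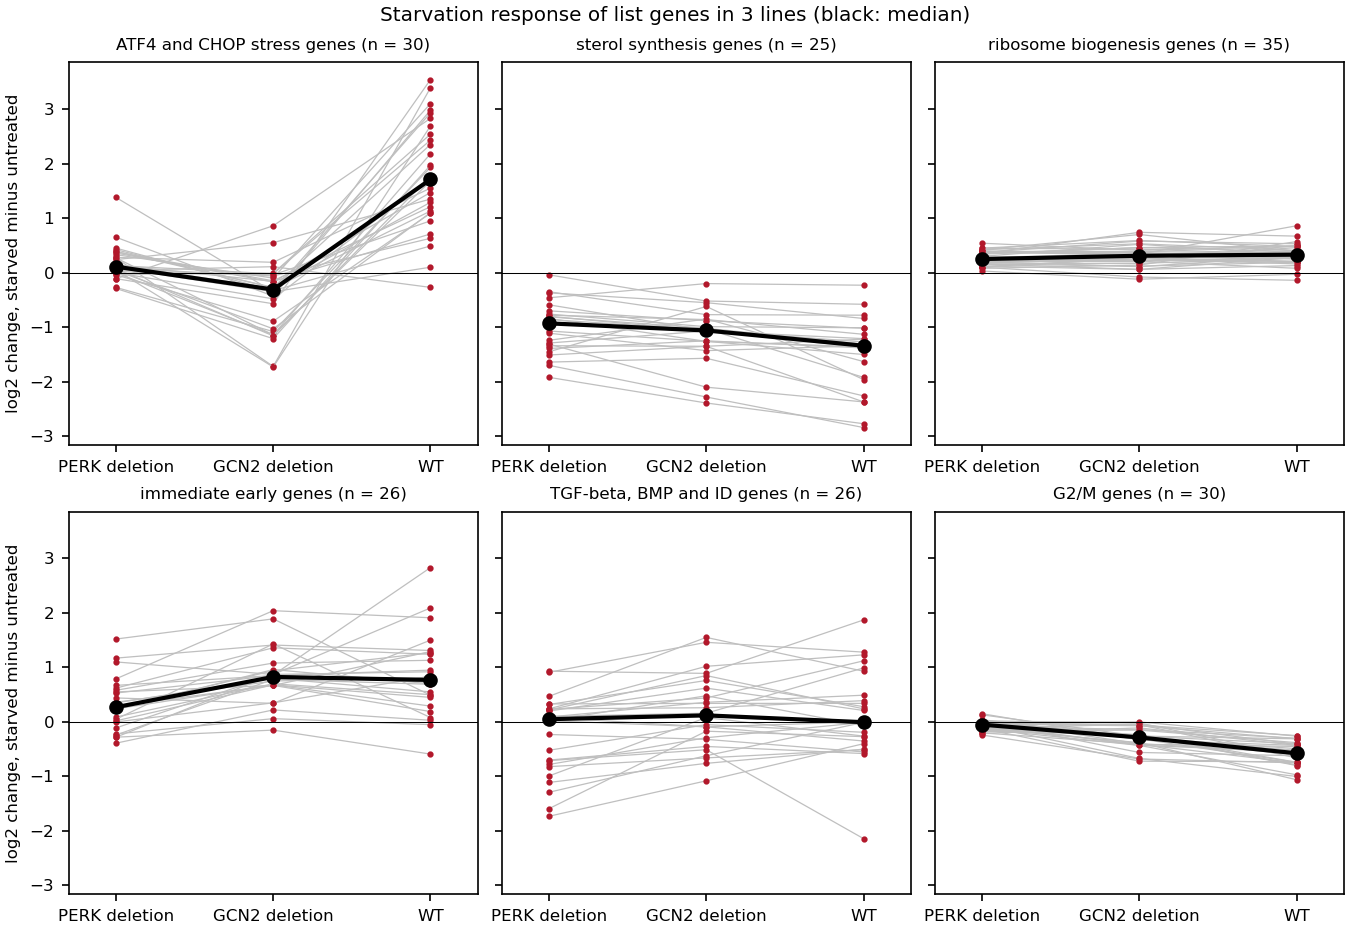
Each thin line is a gene of one of 6 lists, with its log2 change (starved minus untreated) in the PERK-deletion, GCN2-deletion and WT lines as points, and the black line joins the list medians. The ATF4 and CHOP list has medians of 0.11, -0.31 and 1.71, the sterol list -0.93, -1.06 and -1.34, and the G2/M list -0.05, -0.29 and -0.57.

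Protein-folding genes fell in small numbers, where 6.32% of all genes fell and 5.67% rose. Of 30 genes of ER chaperones and of the IRE1 and ATF6 branches, the sensors of ER stress other than PERK, 4 fell and 0 rose (unadjusted 5 and 0; median -0.03). Xbp1, the factor that IRE1 activates by splicing, was 22.5, 20.3 and 21.9 TPM in starved and 30.5, 28.8 and 24.4 TPM in untreated cells (log2 -0.35, adjusted p = 0.00298), but 23.5, 23.8 and 19 TPM with DMSO. Sdf2l1 and Creld2, which encode ER-resident proteins, fell (log2 -0.47 and -0.27, adjusted p = 8.31e-05 and 0.00139), and the fourth was Derl2, whose call ended without starved replicate 1. None of Xbp1, Sdf2l1, Creld2 and Derl2 passed against DMSO (adjusted p = 0.894, 0.134, 0.0583 and 0.455). Against DMSO 1 gene of the list fell, and 0 without starved replicate 1 as well. Hspa5, which encodes the main ER chaperone BiP, was 546.5, 464.4 and 493.4 TPM in starved and 552.2, 511.0 and 453.4 TPM in untreated cells (adjusted p = 0.973), and the co-chaperone gene Dnajb9 did not pass (log2 -0.19, adjusted p = 0.27). Of 24 cytosolic heat shock genes 5 fell and 0 rose (unadjusted 7 and 3; median -0.02). Dnajb4, a co-chaperone gene, was 14.1, 13.7 and 15 TPM in starved and 23, 19.7 and 18.7 TPM in untreated cells (log2 -0.49, adjusted p = 0.000451). Hspa1a and Hspa1b, near-identical copies whose reads the counting may divide, fell (log2 -0.63 and -0.52) and are uncertain for that reason. The call of Hspa1b also ended without any one of 4 libraries, untreated replicate 3 among them. Neither list had a called gene in the fit to the 6 libraries alone.

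Of 23 interferon-stimulated genes 8 fell and 1 rose, where 6.32% of all genes fell and 5.67% rose. The median was -0.25. Ifi27, an interferon-induced gene, fell (log2 -0.53, adjusted p = 0.00803), as did the transcription factor gene Irf7, at about 1 TPM (log2 -0.64, adjusted p = 0.00963). Neither passed against DMSO (adjusted p = 0.153 and 0.417), and Irf7 lost its call without starved replicate 1 (adjusted p = 0.0707). Irf1 was the gene that rose (log2 0.22, adjusted p = 0.042). Its call ended without starved replicate 1 or 3 or untreated replicate 2 or 3 (adjusted p up to 0.175), and against DMSO (log2 0.17, adjusted p = 0.126). The count that fell was 4 without starved replicate 1, 5 without untreated replicate 1 or 2, 2 against DMSO and 1 in the fit to the 6 libraries alone.

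Mitochondrially encoded genes were lower chiefly in 1 library. Of 13 genes 4 fell and 0 rose (unadjusted 9 and 0), where 6.32% of all genes fell and 5.67% rose. The median log2 difference from the untreated mean was -0.67 in starved replicate 1 against -0.19 and -0.17 in the other 2 starved libraries. mt-Co3, a subunit gene of cytochrome oxidase, was 1909, 7002 and 7120 TPM in starved and 8218, 8136 and 8740 TPM in untreated cells. Without starved replicate 1 only mt-Co3 of the 13 fell (log2 -0.24, adjusted p = 0.0319), and against DMSO none did. The other calls were mt-Nd2, mt-Nd6 and mt-Co1. The count was 8 without starved replicate 3, 0 without untreated replicate 1, and 2 without untreated replicate 2 or 3, and it was 0 without starved replicate 1 and untreated replicate 3 together.

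**Figure D5:**
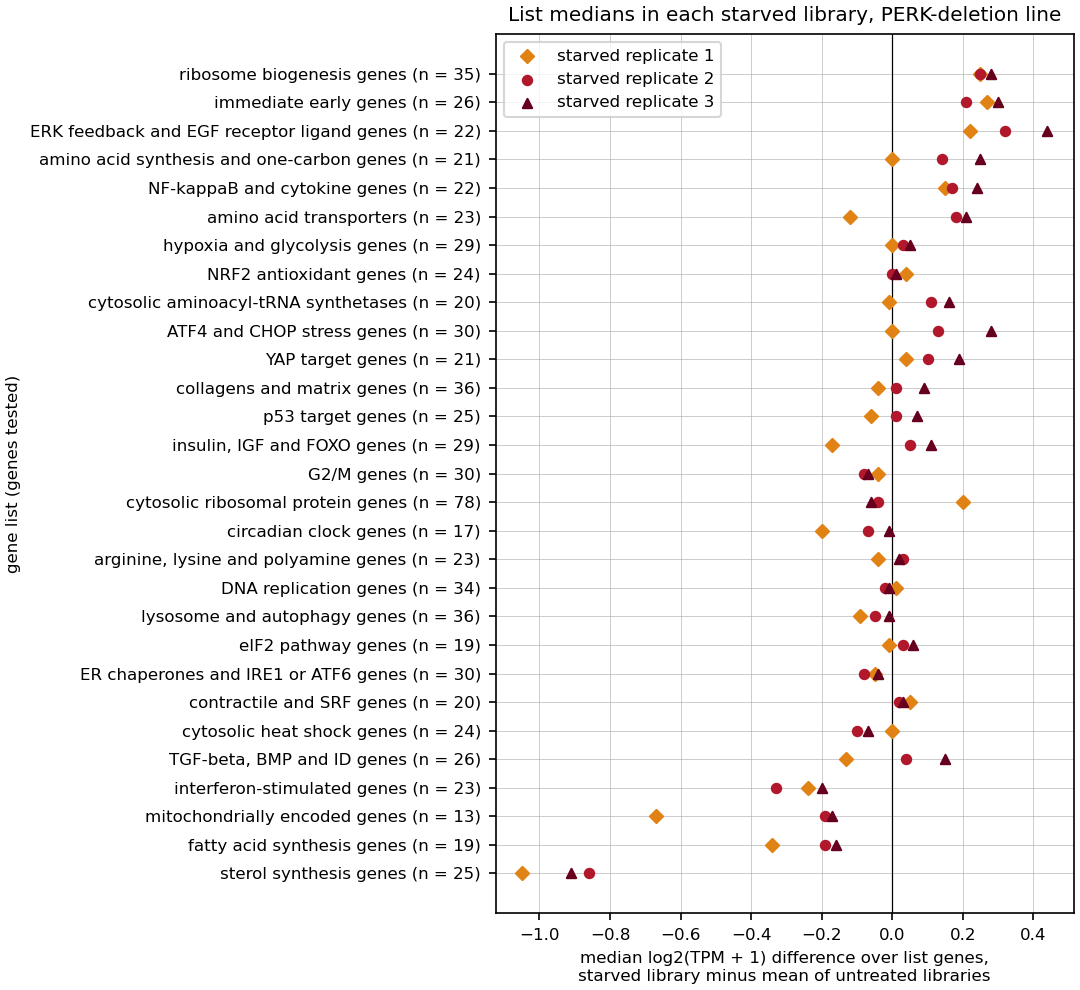
For each of 29 lists the horizontal axis gives the median over its genes of log2(TPM + 1) in a starved PERK-deletion library minus the mean of the untreated libraries, with 1 symbol per starved replicate. The mitochondrially encoded genes (-0.67, -0.19 and -0.17) and the ribosomal protein genes (0.20, -0.04 and -0.06) show replicate 1 apart, while the ribosome biogenesis genes (0.25, 0.25 and 0.28) do not.

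Hypoxia and glycolysis genes had 6 of 29 that rose and 1 that fell (median 0.00). The shares of all genes were 5.67% and 6.32%. Ndrg1, a hypoxia-induced gene, was 24.1, 27.4 and 28.7 TPM in starved and 12.2, 10.4 and 10.6 TPM in untreated cells (log2 change 1.20, SE 0.0931, adjusted p = 2.82e-10). Vegfa, the main growth factor gene of blood vessels, was 86.1, 91.3 and 97.8 TPM in starved and 54, 48.2 and 42.1 TPM in untreated cells (log2 0.92, adjusted p = 0.000149), and Hk2, a hexokinase gene, rose by 0.50. The lactate exporter gene Slc16a3 fell (log2 -0.78). Of 24 NRF2 antioxidant genes 4 rose, Slc7a11, Txnrd1, Abcc1 and Gclc, and 0 fell (unadjusted 4 and 2). Txnrd1, which encodes thioredoxin reductase, was 306.5, 320.4 and 333.9 TPM in starved and 225.8, 222.2 and 186.2 TPM in untreated cells (log2 0.60, adjusted p = 2.1e-06), but missed the threshold against DMSO (adjusted p = 0.0691), as did Gclc (adjusted p = 0.966). The calls of Gclc and Abcc1 ended without starved replicate 3 or untreated replicate 3. Against DMSO 4 other NRF2 genes fell: Nqo1, Hmox1, Gclm and Keap1. The fit to the 6 libraries alone called 2 that rose in each of these 2 lists.

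Lysosome and autophagy genes had 4 of 36 that rose and 5 that fell, where 5.67% of all genes rose and 6.32% fell. The autophagy receptor gene Sqstm1 was 341.1, 363.0 and 362.9 TPM in starved and 274.4, 270.3 and 260.5 TPM in untreated cells (log2 0.40, adjusted p = 6.76e-05), with Gabarapl1 and Wipi1, which act in autophagosome formation, at 0.47 and 0.43. None of these 3 rose against DMSO (adjusted p = 0.482, 0.0881 and 0.115), where 11 of the list fell. Neu1, a lysosomal sialidase gene, was 16.4, 15.7 and 15.4 TPM in starved and 29.9, 28.9 and 24.9 TPM in untreated cells, and Flcn, which encodes folliculin, a regulator of mTORC1 at the lysosome, was 22.9, 27.8 and 28.3 TPM in starved and 42.1, 38.6 and 35.7 TPM in untreated cells. Both fell (log2 -0.77 and -0.54) and fell against DMSO too, and Gla, another lysosomal enzyme gene, fell (log2 -0.47), a call that ended without starved replicate 1 (adjusted p = 0.077) or untreated replicate 2.

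Of 36 genes of collagens and matrix 5 rose and 3 fell, where 5.67% of all genes rose and 6.32% fell, so that the share that fell was near that of all genes. Adamts1 and Adamts5 encode proteases of proteoglycans. Adamts1 was 8.39, 8.33 and 9.95 TPM in starved and 22.8, 22.1 and 17.2 TPM in untreated cells (log2 -1.13), and Adamts5 was 0.995, 1.11 and 1.24 TPM in starved and 4.36, 4.01 and 3.24 TPM in untreated cells (log2 -1.20). Tnc, the gene of the matrix protein tenascin C, was 146.7, 167.6 and 172.1 TPM in starved and 97.5, 91.9 and 76.8 TPM in untreated cells (log2 0.87, adjusted p = 1.75e-06), Timp1 rose by 0.49 and Lox by 0.52. The call of Lox ended without untreated replicate 3 and against DMSO (log2 0.14, adjusted p = 0.587). Col1a1 fell (log2 -0.48), a call that ended without starved replicate 1. Without untreated replicate 3 the list had 2 that rose and 7 that fell. Of 20 contractile and SRF genes 1 rose, Zyx, and 4 fell, with Lmod1 at -0.72, Myl9 at -0.44, Srf and Acta2. Myl9 did not pass against DMSO (adjusted p = 0.117), the call of Acta2 ended without starved replicate 1 or either of 2 untreated libraries, and that of Zyx without any one of 4 libraries, untreated replicate 3 among them. Of 21 YAP targets 4 rose and 2 fell. Ctgf, a matricellular factor, was 225.3, 226.5 and 221.4 TPM in starved and 110.2, 104.3 and 98.9 TPM in untreated cells (log2 change 1.10, SE 0.0648, adjusted p = 1.13e-12), while its relative Cyr61 did not pass. Nuak2 and Tead4 rose (log2 0.75 and 0.33), and Dlc1 and Tgfb2 fell (log2 -0.46 and -0.55); neither Tead4 nor Tgfb2 passed against DMSO (adjusted p = 0.069 and 0.0735). Tead4 did not pass without untreated replicate 3, and without it the YAP list had 2 that rose and 5 that fell.

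Smaller groups had few calls, where 5.67% of all genes rose and 6.32% fell. Of 25 p53 targets 3 rose and 2 fell, with Pmaip1, which encodes the death protein NOXA, at 0.46, Aen at 0.42, Sesn1 at -0.49 and Ccng1 at -0.27. Against DMSO Pmaip1 did not differ past the threshold (log2 0.01, with 8.05, 7.87 and 8.8 TPM in starved and 8.46, 7.36 and 8.83 TPM in DMSO-treated cells), and the call of Ccng1 ended without starved replicate 1 (adjusted p = 0.252) or either of 2 untreated libraries. Of 29 genes of insulin, IGF and FOXO signalling 4 rose and 3 fell. Txnip, which encodes a glucose uptake inhibitor, was 9.39, 11.7 and 11.5 TPM in starved and 19.4, 19.1 and 18.3 TPM in untreated cells (log2 change -0.75, SE 0.11, adjusted p = 1.76e-05), Pdk4 rose by 0.59, Trib1 by 0.45 and Foxo1 by 0.32, and Tsc22d3 fell (log2 -0.30). The call of Tsc22d3 ended without starved replicate 1 (log2 -0.18, adjusted p = 0.307) or either of 2 untreated libraries, that of Foxo1 without starved replicate 2 or 3 or untreated replicate 3, and neither passed against DMSO (adjusted p = 0.308 and 0.505). Of 17 circadian clock genes 2 rose, Bhlhe40 (log2 0.92) and Nr1d1 (0.47), and 2 fell, Dbp (-0.73) and Bhlhe41 (-0.59). The call of Bhlhe41 ended without starved replicate 2 or untreated replicate 1 and against DMSO (log2 -0.30, adjusted p = 0.243). Of 19 genes of the eIF2 pathway Eif2b2 rose (0.33) and Eif2b4 (-0.18) and Impact (-0.57) fell. Eif2b2 and Eif2b4 encode subunits of the exchange factor on which phosphorylated eIF2alpha acts. The calls of Eif2b4 and Impact each ended without starved replicate 1 and others. Among other cell types' markers Cd14 was the gene called, at 10.6, 10.6 and 11.4 TPM in starved and 8.91, 8.9 and 7.41 TPM in untreated cells (adjusted p = 0.00986), and not without untreated replicate 3.

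The starvation response of the PERK-deletion line differed from that of WT most for a few genes. The largest positive differences of genes with a mean of at least 5 TPM were those of S100a7a, Ucn2, Rasl11a, Col7a1 and Cacna1g. Rasl11a, which encodes a small GTPase, was 3.87, 2.27 and 3.09 TPM in starved and 1.4, 1.75 and 1.52 TPM in untreated PERK-deletion cells, against 26.9, 28 and 30.8 TPM in starved and 75.1, 82.4 and 89.3 TPM in untreated WT cells (difference 2.15, SE 0.184, adjusted p = 1.77e-09). Its level in the PERK-deletion line was low in both conditions. Ucn2 was 1.15, 0.881 and 0.73 TPM in starved and 5.81, 1.97 and 1.77 TPM in untreated WT cells, and Col7a1, a collagen of skin anchoring fibrils, was 15.3, 15 and 15.7 TPM in starved and 64.6, 25.2 and 26.4 TPM in untreated WT cells. In both genes, and in the calcium channel gene Cacna1g (17.9, 6.85 and 8.1 TPM in untreated WT cells), untreated WT replicate 1 was far above the other 2 untreated WT libraries. Without it the differences were 1.95 for Ucn2 (adjusted p = 1.82e-05), 1.56 for Col7a1 (adjusted p = 5.15e-05) and 1.54 for Cacna1g (adjusted p = 0.000446), against 2.36, 1.99 and 1.93 with it. In the PERK-deletion line Col7a1 was 99.8, 109.2 and 93.3 TPM starved and 58.9, 58.4 and 49.8 TPM untreated (log2 0.85, adjusted p = 0.0152), a call that ended when starved replicate 2 or untreated replicate 3 was left out and was just missed against DMSO. S100a7a, a small calcium-binding protein gene, was 8.55, 19.8 and 17.5 TPM in starved and 10.8, 5.31 and 4.1 TPM in untreated PERK-deletion cells, with overlap (adjusted p = 0.0806).

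The largest negative differences from WT were those of Rnu5g, Gadd45a, Rn7sk, Trib3 and Ciart. Gadd45a, a growth arrest gene, was 18, 19.5 and 22.8 TPM in starved and 21.4, 22.8 and 20.8 TPM in untreated PERK-deletion cells, against 132.0, 158.1 and 161.1 TPM in starved and 12.2, 11.6 and 12.2 TPM in untreated WT cells (difference -3.64, SE 0.141, adjusted p = 2.89e-16). Ciart, a circadian repressor gene, was 7.33, 8.94 and 13.1 TPM in starved and 8.5, 9.65 and 9.39 TPM in untreated PERK-deletion cells, against 67.9, 72.8 and 81.2 TPM in starved and 9.25, 9.22 and 6.29 TPM in untreated WT cells. Neither passed in the PERK-deletion line (adjusted p = 0.571 and 0.925), and both were high in starved WT. Rnu5g and Rn7sk are small nuclear RNA genes. Rnu5g was listed at 0 in all 3 starved and at 17.8, 3.86 and 20.7 TPM in the untreated PERK-deletion libraries, so no fold is given, and it did not pass against DMSO (adjusted p = 0.181). Rn7sk was 21.7, 13.2 and 11.6 TPM in starved and 60.8, 32.4 and 82.1 TPM in untreated PERK-deletion cells. It passed neither there (log2 -1.80, SE 0.692, adjusted p = 0.0958) nor in WT (log2 1.33, adjusted p = 0.164). WT libraries stood at 30.8, 20.4 and 44.2 TPM starved and 20, 5.84 and 12.5 TPM untreated. The difference of Rn7sk itself had an SE of 0.979 and an adjusted p of 0.0378.

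Against the GCN2-deletion line the largest positive differences were those of Trib3, Chac1, Slc7a11, Slc6a9 and Ucn2. The first 4 are known ATF4 targets. Trib3 was 1.53, 0.82 and 1.11 TPM in starved and 6.13, 5.89 and 6.02 TPM in untreated GCN2-deletion cells (difference 1.99, SE 0.172, adjusted p = 2.04e-08), so that a fall without GCN2 stood against a value near level without PERK. Chac1 was 3.04, 2.87 and 2.62 TPM in starved and 12.3, 11.7 and 11.2 TPM in untreated GCN2-deletion cells (difference 1.77, adjusted p = 5.03e-08). The largest negative differences were those of Txnip, Lif, Gjb2, Odaph and Ereg. Txnip fell without PERK but stood at 28.5, 28 and 42 TPM in starved and 13.2, 12.7 and 15 TPM in untreated GCN2-deletion cells (difference -1.94, SE 0.155, adjusted p = 4.58e-09), and its response differed from WT as well (-1.88, adjusted p = 8.54e-10). Ereg, an EGF receptor ligand gene, and Gjb2, a gap junction gene, were under 1 TPM in all 6 PERK-deletion libraries, while Ereg stood at 43.2, 48.4 and 51.6 TPM and Gjb2 at 187.8, 191.7 and 224.5 TPM in starved GCN2-deletion cells. Their differences are thus between a line that has the RNA and one where its level was near 0.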

How the data were processed

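The deposited table gives TPM per gene symbol for 36 libraries, and the authors' values sum to between 999999.83 and 1000000.09 per library. Kallisto, FastQC and mm10 are named without versions, per the submitters' processing notes; the transcript annotation is not given in the sources used here. Per the labels' protocols, total RNA was extracted with Trizol and libraries were stranded. TPM keeps no depth, so intervals that need read counts could not be given.

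Values were taken as log2(TPM + 1) and fitted with limma 3.58.1 (R 4.3.3, mean-variance trend, robust empirical Bayes) over all 12 groups, with 24 residual degrees of freedom. Tests covered 16083 genes, those that reached 1 TPM in 3 or more libraries, with Benjamini-Hochberg adjustment over all of them. Differences between lines are interaction contrasts of that fit; those from WT and from the GCN2-deletion line share the PERK-deletion libraries. The procedure was run on simulated data that had the same spread per gene in all groups. Such data cannot show how it behaves when the compared libraries spread more than others. Figures used matplotlib 3.10.9 and Python 3.11.15.

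Genes were named by rule: the 4 eIF2alpha kinases, a stress panel, the 12 that rose and the 12 that fell most (mean of at least 5 TPM, no overlap between groups), up to 3 called genes per list and direction, the 5 highest and 5 lowest differences between lines, and up to 6 list genes whose call turned on 1 library. The members, the 29 gene lists and the 7 marker lists were chosen with earlier results of these data known, and other genes named were chosen after their values were seen. A few genes that the rule names are not reported here. Of 54735 symbols 54106 matched a GRCm38 annotation, and promoter sequences are from RefSeq (GRCm38.p6), with those on chromosome 18 not searched. Replicate numbers did not pair the libraries: the correlations of same-numbered deviations were -0.018, 0.013 and -0.014. The alternatives tried were 17 planned settings and 5 chosen after seeing the data.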

Additional observations from a re-analysis of the deposited data

Results flagged for a closer look

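The values given here drew attention because the starvation response of the PERK-deletion line differed from that of another line by the interaction test of limma (adjusted p under 0.05 over all genes tested). Groups held 3 libraries, too few for a test of single libraries that stand apart. All values are differences of log2 changes, PERK-deletion minus the other line.

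Among stress genes the response was lower than in WT, with differences of -3.12 for Trib3, -2.93 for Atf3, -2.76 for Fgf21, -2.64 for Chac1, -2.58 for Ppp1r15a, -2.21 for Ddit3 and -2.18 for Sesn2. Further panel genes differed by -1.55 for Slc7a11, -1.41 for Ddit4, -1.02 for Dnajb9, -0.98 for Asns, -0.93 for Atf4, -0.83 for Gdf15, -0.63 for Xbp1 and -0.27 for Psat1. For Slc7a11, Psat1, Ddit4 and Gdf15 the gene also rose without PERK, so the lower response was a smaller rise. The calls of Psat1, Ddit4 and Gdf15 each ended when certain single libraries were left out. Psat1 and Ddit4 did not pass against DMSO (adjusted p = 0.241 and 0.15), and Gdf15 stayed under 1 TPM in the PERK-deletion libraries compared.

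Outside the panel the response was lower than in WT, with differences of -6.43 for Rnu5g, -3.64 for Gadd45a, -3.13 for Rn7sk and -2.98 for Ciart. Rnu5g was listed at 0 in starved PERK-deletion and in untreated WT libraries, so its value depends on the pseudocount. Rn7sk passed neither in the PERK-deletion line nor in WT (adjusted p = 0.0958 and 0.164). The response was higher than in WT by 2.63 for S100a7a, 2.36 for Ucn2, 2.15 for Rasl11a, 1.99 for Col7a1 and 1.93 for Cacna1g, and for Ucn2, Col7a1 and Cacna1g untreated WT replicate 1 lay far above the other 2 untreated WT libraries. Without it these 3 differences were 1.95, 1.56 and 1.54.

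Against the GCN2-deletion line the response was higher by 1.99 for Trib3, 1.77 for Chac1, 1.73 for Slc7a11, 1.69 for Slc6a9 and 1.69 for Ucn2. It was lower, with differences of -1.94 for Txnip, -1.93 for Lif, -1.93 for Gjb2, -1.62 for Odaph and -1.51 for Ereg. Gjb2 and Ereg stood under 1 TPM in all 6 PERK-deletion libraries.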

How the results depend on the processing

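Of 3465 alternative values for 158 effects of named genes, 3066 kept direction and side of the threshold, 379 kept direction but no longer passed, 17 newly passed and 3 changed sign: Ccl2 was 0.06 against DMSO without starved replicate 1, and the Cdc20 log2 change was -0.0005 against DMSO and -0.02 with that library also left out.

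The counts of genes moved more. Leaving out 1 of the 6 PERK-deletion libraries at a time gave 544 to 940 genes that rose and 638 to 1285 that fell, and responses higher and lower than in the GCN2-deletion line for 211 to 382 and 238 to 516 genes. The fit to the compared groups alone gave 168 that rose, 114 that fell, 271 higher and 416 lower than WT, and 89 higher and 103 lower than GCN2-deletion. Array weights gave 2253, 3384, 558, 818, 2106 and 3211 for these counts in the same order, with 217 and 208 at 2-fold; their default estimation stopped before it converged. Weights estimated gene by gene gave 1382, 2101, 1663, 1474, 1118 and 1760, with 108 and 114 at 2-fold. With DMSO as control 518 genes were higher than in WT, and 158 higher and 197 lower than in GCN2-deletion. Without starved replicate 1 as well, 589 rose, 620 fell, 32 fell 2-fold, 505 were higher than in WT, and 165 were higher and 158 lower than in GCN2-deletion. Leaving out both libraries with high microRNA shares gave 523 that rose and 212 higher than in GCN2-deletion. Median-of-ratios scaling gave 524 higher and 555 lower than in GCN2-deletion, and quantile normalization 525 higher. A pseudocount of 0.1 gave 103 and 113 at 2-fold, and protein-coding genes alone gave 30 that fell 2-fold. Fewer samples enter the fit alone and the fits with libraries left out. The cause of the moved counts was not tested for any setting.

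With the replicate number as a block 929 genes rose and 1036 fell, though the numbers did not pair the libraries. Of 783 list genes 212 were called, 79 calls were lost and 72 made when 1 library was left out. Without untreated WT replicate 1, 1023 genes rose, 684 were higher and 945 lower than in WT, and 406 were higher than in GCN2-deletion. Depth is unknown, and genes of low TPM are the least certain.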
